A study of Arabidopsis thaliana with 9 samples.

Results

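RNA of whole Arabidopsis thaliana seedlings was compared between all 6 libraries of the 2cpab mutant and the 3 libraries of the wild type, with the pigment of the mutants set aside. The 6 mutant libraries were 3 of green and 3 of albino 2cpab seedlings, and the wild type was Col-0; together they are the 9 libraries of the series. All seedlings were 6 days old and had been raised on MS medium with sucrose (0.5%) and lit without a break at 125 µE m-2 s-1, so no group was without sucrose or in the dark. The labels give the genotype as 2cpab mutant without naming alleles, and they leave unsaid whether the 3 libraries of a group are separate cultures. The p-values therefore rest on the spread among these libraries, which may be technical. How seedlings were sorted into green and albino is not given in the sources used here.

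2-Cys peroxiredoxins are thiol enzymes of the chloroplast stroma that reduce hydrogen peroxide and organic peroxides. They are re-reduced by NADPH-dependent thioredoxin reductase C and thioredoxins, and in turn draw electrons from thioredoxins, so they also take part in setting the redox state of other stromal enzymes. The nuclear genes 2CPA and 2CPB encode the pair of these enzymes in Arabidopsis, and mutants short of both are known to be pale and to grow slowly. The series title joins them to cpHSP70, the HSP70 chaperone of the stroma. The comparison addresses which transcripts differ in mutant seedlings whether or not they have greened.

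Levels are scaled FPKM, a read density per gene length that the authors scaled to one upper quartile in every library. Differences are on the log2(scaled FPKM + 1) scale, 2cpab minus wild type, with their standard error (SE), and this scale understates the change of weakly expressed genes. A gene was called at a Benjamini-Hochberg adjusted p under 0.05 in a limma fit with 1 mean for the 6 mutant libraries and 1 for the 3 wild-type libraries. It was counted as held where, in addition, all 6 mutant libraries lay above, or all 6 below, all 3 wild-type libraries. The step is the log2 distance between the mutant and the wild-type library nearest to each other.

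The targeted genes were lower in every mutant library, by unequal amounts. 2CPA stood at 35.8, 267 and 256 scaled FPKM in green and at 24.2, 21.4 and 25.4 in albino 2cpab libraries, against 989, 763 and 890 in wild-type libraries. 2CPB stood at 7.21, 48.6 and 54.2 in green and at 1.82, 2.89 and 1.52 in albino 2cpab libraries, against 237, 174 and 188 in wild-type libraries. Green replicate 1 lay closer to the albino libraries than to the other green libraries for both genes. The 2cpab minus wild-type difference was -3.92 ± 0.89 for 2CPA (adjusted p = 0.0396) and -4.43 ± 1.06 for 2CPB (adjusted p = 0.0462). For 2CPA the call was lost in 9 of 23 alternatives and that of 2CPB in 10, among them those without green replicate 1, while the direction held in all of them. Neither gene of the stromal HSP70 was called over the 6 mutant libraries. The difference was -0.01 ± 0.26 for cpHSC70-1 (adjusted p = 0.975), whose sign turned in 7 alternatives, and -0.33 ± 0.39 for cpHSC70-2 (adjusted p = 0.61). Both pool unlike values. Against the wild type, cpHSC70-1 stood at 0.35 in green and -0.38 in albino mutants (adjusted p = 0.229 and 0.0759). For cpHSC70-2 these were 0.28 and -0.94 (adjusted p = 0.459 and 0.00335). Albino minus green was -0.74 for cpHSC70-1 and -1.22 for cpHSC70-2 (adjusted p = 0.00528 and 0.000952).

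Of 19731 genes tested, 369 (1.87%) were called higher and 655 (3.32%) were called lower in 2cpab seedlings, 1024 (5.19%) in all. Of these, 364 rises (1.84% of tested genes) and 652 falls (3.3%) were held by every mutant library. Regardless of the test, the 6 mutant and 3 wild-type libraries did not overlap for 1484 genes (7.52%) that were higher and 1490 (7.55%) that were lower; with the authors' scaling undone these counts were 2084 and 916. The median difference over all tested genes was 0.05, and it was 0.26 when scaled to a common sum over nuclear genes and 0.24 with the scaling undone. The held rises had a median difference of 0.77 and a median step of 0.27, and 122 of them were at least 2-fold. The held falls had a median difference of -0.87 and a median step of 0.35, and 261 of them were at least 2-fold. The gene just inside the threshold was AT3G26510 (adjusted p = 0.0498) and the one just outside was AT3G47010 (adjusted p = 0.0504).

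The size of this set depended on single libraries. Leaving out one library at a time gave 48 to 599 held rises and 88 to 879 held falls, with 48 and 88 without wild-type replicate 3, 78 and 185 without wild-type replicate 1, and 214 and 473 without green replicate 1. Without green replicates 2 and 3, a choice made after seeing the data, there were 2259 rises and 2235 falls. In none of the alternatives did a held gene turn its direction. Of 68 named genes that were called, 19 kept the call in all 23 alternatives; GOLS1 lost it in 12, APR1 in 13, FSD1 and LOX3 in 8 each and PDF1.4 in 7. Of the held genes, 34 rises and 46 falls stayed held in all 12 processing alternatives and in all 9 sets with 1 library left out. Such genes are said below to be held throughout.

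LSU2 had the widest step of all held genes. It encodes a small protein of the response to low sulfur family, whose transcripts are known to build up when sulfur is short. LSU2 had 27.0, 23.4 and 23.4 scaled FPKM in green and 24.5, 25.6 and 26.2 in albino 2cpab libraries, against 2.00, 1.75 and 1.93 in wild-type libraries. Green and albino mutants stood at the same level within 0.05 ± 0.09 log2 (SE; adjusted p = 0.698 for albino minus green), and the lowest mutant library was 3.02 log2 above the highest wild-type library. The 2cpab minus wild-type difference was 3.17 ± 0.07 (adjusted p = 1.26e-07), and the gene was held throughout. LSU2 was also among the rises picked for a small albino minus green difference, so its evenness is a description.

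Related LSU genes rose less evenly. LSU3 had 12.2, 8.12 and 7.97 in green and 16.9, 14.6 and 15.1 scaled FPKM in albino 2cpab libraries, against 1.49, 1.31 and 1.5 in wild-type libraries, a difference of 2.42 ± 0.23 (adjusted p = 0.00251), and was held throughout. LSU1 had 9.53, 5.47 and 5.10 in green and 19.42, 14.95 and 17.65 in albino 2cpab libraries, against 1.39, 2.05 and 0.836 in wild-type libraries, a difference of 2.3 ± 0.42 (adjusted p = 0.0187). All 6 mutant libraries of both genes lay above the wild type, with the albino libraries highest. LSU1 and LSU3 are neighbours on chromosome 3 and LSU2 has a neighbour copy, LSU4, on chromosome 5; how reads shared by such copies were counted is not given in the sources used here. A list of 13 sulfur limitation genes, added after values had been seen, had 12 members tested. Of these 3 were held higher (LSU1, LSU2 and LSU3), against 1.84% of all tested genes, and none lower, and the median difference was 1.2. There were 2 held rises without wild-type replicate 1 or 3 and 6 without green replicate 3. APR1, the reductase of activated sulfate, was in another list and also rose, with 23.7, 19.1 and 20.1 in green and 37.5, 32.6 and 28.2 in albino 2cpab libraries, against 13.2, 14.0 and 14.8 in wild-type libraries (0.86 ± 0.20, adjusted p = 0.0463).

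**Figure D1:**
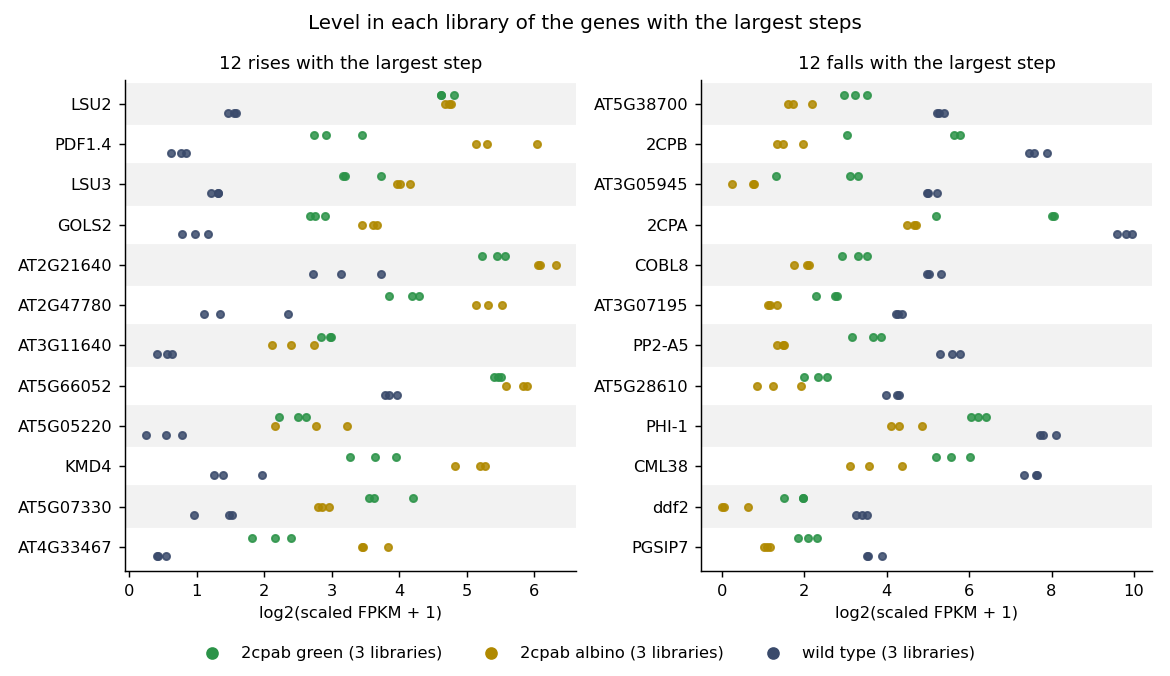
Level of 12 rises (left) and 12 falls (right) with the largest step, as log2(scaled FPKM + 1) on the horizontal axis. Each point is 1 library, green 2cpab above albino 2cpab above wild type within a gene; for LSU2 the 6 mutant points coincide, while for PDF1.4 and PP2-A5 the albino points lie apart from the green ones.

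Other rises with wide steps had varied functions. GOLS2, a galactinol synthase at the start of raffinose synthesis, had 5.74, 6.46 and 5.42 scaled FPKM in green and 11.7, 9.90 and 11.2 in albino 2cpab libraries, against 0.971, 1.25 and 0.722 in wild-type libraries (2.2 ± 0.25, adjusted p = 0.0042). Its relative GOLS1 rose too, but further in green mutants, with 39.6, 89.5 and 93.2 in green and 18.7, 13.7 and 26.8 in albino 2cpab libraries, against 5.16, 6.81 and 5.93 in wild-type libraries (2.43 ± 0.59, adjusted p = 0.0477). The defensin-like gene PDF1.4 went the other way, with 9.89, 5.67 and 6.57 in green and 38.2, 34.2 and 64.9 in albino 2cpab libraries, against 0.795, 0.702 and 0.530 in wild-type libraries (3.52 ± 0.73, adjusted p = 0.0285). A list of galactinol and raffinose genes, added after values had been seen, held 2 rises, GOLS1 and GOLS2, among 3 tested members, against 1.84% of all tested genes. It held 1 without any one wild-type library, green replicate 1 or 2, or albino replicate 1 or 3. GOLS1 and PDF1.4 differed between pigment groups in opposite senses, by -1.81 and 2.46 log2 albino minus green (adjusted p = 0.00178 and 5.59e-05). KMD4, a kelch-repeat F-box gene, had 14.5, 8.69 and 11.5 scaled FPKM in green and 37.6, 27.3 and 35.7 in albino 2cpab libraries, against 1.397, 1.611 and 2.917 in wild-type libraries (2.82 ± 0.46, adjusted p = 0.0124). It was the 1 held member of 16 carbon starvation genes, against 1.84% of all tested genes, and the median difference of that list was 0.04. AT2G47780, which RefSeq describes as a rubber elongation factor protein, had 18.5, 17.3 and 13.4 in green and 34.2, 38.7 and 44.7 in albino 2cpab libraries, against 1.15, 4.103 and 1.53 in wild-type libraries (3.12 ± 0.42, adjusted p = 0.00672). In both the albino libraries were the highest. AT4G33467, with no function named in RefSeq, rose by 2.39 ± 0.44 (adjusted p = 0.0187). AT5G07330 rose by 2.01 ± 0.31 (adjusted p = 0.011), with its green libraries above its albino libraries. KMD4 overlaps, on the opposite strand, AT3G09275, which was itself held higher.

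RefSeq names no function for AT5G66052, AT5G05220, AT5G44005 and AT2G25510, which were held throughout. AT5G66052 had 43.2, 41.3 and 44.6 scaled FPKM in green and 56.1, 58.5 and 46.6 in albino 2cpab libraries, against 12.7, 13.3 and 14.6 in wild-type libraries (1.75 ± 0.13, adjusted p = 0.00159). AT5G05220 rose by 2.06 ± 0.23 (adjusted p = 0.0042), AT2G25510 by 1.55 ± 0.13 (adjusted p = 0.00251) and AT5G44005 by 1.51 ± 0.17 (adjusted p = 0.0042). For AT5G05220, AT5G44005 and AT2G25510 the albino minus green difference did not pass the test (adjusted p of 0.336 to 0.853). AT5G44005, AT2G25510 and RVE2 were picked for a small albino minus green difference, which largely fixed their evenness. RVE2, a homeodomain-like gene of the group that includes clock regulators, was likewise even, with 58.3, 60.8 and 66.4 in green and 51.2, 53.1 and 74.0 in albino 2cpab libraries, against 24.6, 18.3 and 19.1 in wild-type libraries (1.51 ± 0.14, adjusted p = 0.00251).

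AT3G11640 rose beside a targeted gene. It lies on chromosome 3 at 3674282 to 3675262 on the plus strand of TAIR10.1, 122 bases past the annotated end of 2CPA on the same strand. RefSeq annotates it as an uncharacterized protein. The bases between the annotated end of 2CPA and the start of AT3G11640, chr3:3674160-3674281, are shown because they are all that parts a fallen gene from a risen one.
Between 2CPA and AT3G11640: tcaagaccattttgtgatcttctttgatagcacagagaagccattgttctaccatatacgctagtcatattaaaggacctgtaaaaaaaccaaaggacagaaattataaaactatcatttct
AT3G11640 had 6.88, 6.91 and 6.18 scaled FPKM in green and 4.27, 3.35 and 5.64 in albino 2cpab libraries, against 0.476, 0.559 and 0.337 in wild-type libraries. The difference was 2.14 ± 0.20 (adjusted p = 0.00251), the gene was held throughout, and green mutants stood 0.52 log2 above albino mutants (albino minus green -0.52, adjusted p = 0.0224). Of 15 tested genes among the 5 nearest on each side of 2CPA and of 2CPB, it was the only one held, against 5.15% of all tested genes. The gene just past 2CPB, LOG7, lies on the other strand and was not called (-0.40 ± 0.16, adjusted p = 0.189). The cause of this rise was not tested.

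**Figure D2:**
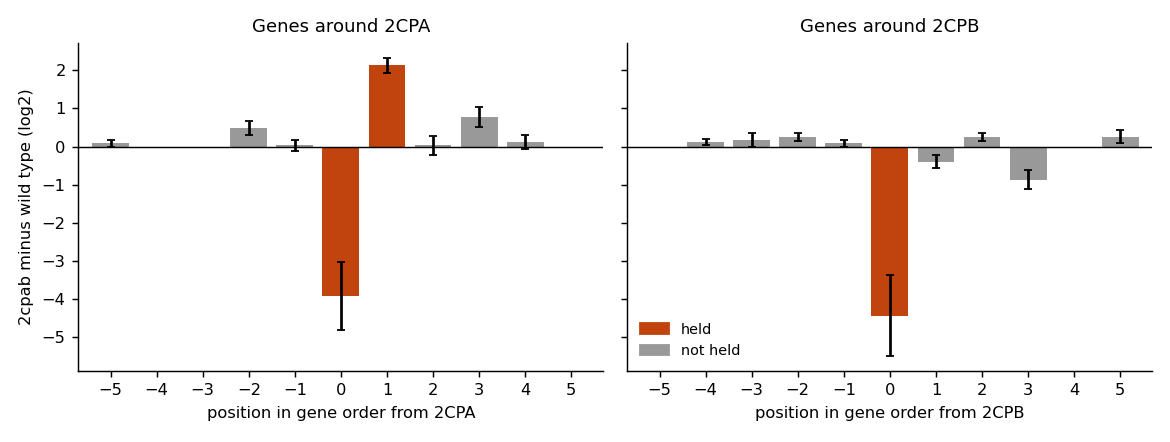
Difference between 2cpab and wild-type libraries (log2, bars, with SE) for the tested genes around 2CPA (left) and 2CPB (right), by place in gene order. The targets at 0 and AT3G11640 at place 1 past 2CPA are held, and the other 14 genes are not.

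Transcripts of the mitochondrial dysfunction response, which plants raise when respiration is disturbed, were held higher for 4 of 11 tested members, against 1.84% of all tested genes, and held lower for none. The median difference was 0.98. AT2G21640, which RefSeq describes as a marker for oxidative stress response, had 36.5, 46.1 and 42.8 scaled FPKM in green and 66.9, 65.2 and 78.6 in albino 2cpab libraries, against 5.57, 12.3 and 7.75 in wild-type libraries (2.59 ± 0.28, adjusted p = 0.00399). NAC013, a transcription factor that takes part in this response, had 24.1, 22.1 and 17.5 in green and 22.0, 19.7 and 22.8 in albino 2cpab libraries, against 4.69, 7.19 and 6.57 in wild-type libraries (1.66 ± 0.14, adjusted p = 0.00251). Both genes were held throughout, and NAC013 did not differ beyond the spread between albino and green (0.03, adjusted p = 0.901). NAC013 was among the rises picked for a small albino minus green difference, which largely fixed that outcome. AOX1A, the alternative oxidase that bypasses part of the respiratory chain, had 55.6, 41.1 and 35.1 in green and 55.5, 50.9 and 55.5 in albino 2cpab libraries, against 16.39, 23.62 and 21.27 in wild-type libraries (1.22 ± 0.18, adjusted p = 0.00905). SOT12, a sulfotransferase, rose by 0.98 ± 0.22 (adjusted p = 0.037). The others did not pass, among them UGT74E2 at 2.31 (adjusted p = 0.146) and NDA1 at -1.08 (adjusted p = 0.243). Leaving out a single library gave 2 to 4 held rises, with 2 without wild-type replicate 3.

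NAC013 and related factors are known to bind a mitochondrial dysfunction motif, CTTG and, after 5 bases of any kind, CAAG or CACG, which was searched on both strands in the 300 bases before each annotated start; this motif was chosen after values had been seen. It stood in 377 of 27431 protein-coding promoters (1.37%), in 207 of 19022 promoters of tested genes (1.09%), in 13 of 344 of held rises (3.78%) and in 4 of 642 of held falls (0.62%). Of the 12 members of the mitochondrial list, 5 had it: AT2G21640, AT1G05060, NDB2, NDA1 and CYP81D8. Among these, AT2G21640 alone was a held rise. It also stood in 4 of 25 promoters of heat-shock genes outside the plastid (16%), a list with no held gene. These counts are descriptions without a test. The 13 stretches from held rises follow as RefSeq sequence of TAIR10.1 read along each gene's strand, with the motif in capitals and up to 15 bases on each side, because they include 2 of the widest steps, AT2G21640 and AT5G66052.
AT2G21640, chr2:9254312-9254354, plus strand: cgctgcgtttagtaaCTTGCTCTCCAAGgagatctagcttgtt
AT5G66052, chr5:26416053-26416095, plus strand: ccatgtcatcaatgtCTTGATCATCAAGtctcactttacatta
CRF6, chr3:22804698-22804727, plus strand: tgCTTGGAGACCAAGctatagattaggaca
AT4G14270, chr4:8217797-8217839, plus strand: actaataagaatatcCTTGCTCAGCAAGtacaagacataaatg
AT3G58150, chr3:21534136-21534175, minus strand: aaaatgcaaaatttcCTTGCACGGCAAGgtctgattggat
AT2G35480, chr2:14910302-14910342, plus strand: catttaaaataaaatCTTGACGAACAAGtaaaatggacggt
SNRK2.3, chr5:26710094-26710136, plus strand: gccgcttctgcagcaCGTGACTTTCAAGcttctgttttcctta
AT5G24640, chr5:8436257-8436299, plus strand: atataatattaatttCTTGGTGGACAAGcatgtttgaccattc
NAC044, chr3:228995-229037, plus strand: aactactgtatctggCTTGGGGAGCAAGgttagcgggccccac
AT2G03130, chr2:940559-940601, plus strand: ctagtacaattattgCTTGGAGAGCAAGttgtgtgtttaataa
CRF5, chr2:19011162-19011197, plus strand: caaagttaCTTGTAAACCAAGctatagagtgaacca
AT1G17510, chr1:6024575-6024609, minus strand: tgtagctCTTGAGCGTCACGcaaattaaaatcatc
BGLU19, chr3:7527790-7527832, minus strand: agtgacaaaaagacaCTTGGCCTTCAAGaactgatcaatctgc
The motif began 51 bases before the start of AT2G21640 and 58 before that of AT5G66052. NAC013, AOX1A and SOT12 had no match in this window. CRF6, a cytokinin response factor that was held throughout, had 31.8, 24.9 and 20.1 scaled FPKM in green and 21.6, 20.4 and 20.9 in albino 2cpab libraries, against 7.21, 9.48 and 11.6 in wild-type libraries (1.22 ± 0.17, adjusted p = 0.00814). It was named after its values were seen. A G-box, CACGTG, stood in 49 of 344 promoters of held rises (14.2%) and in 61 of 642 of held falls (9.50%), against 8.31% of tested genes. The heat-shock element stood in 2 promoters of held rises and 1 of held falls, against 0.50% of tested genes.

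Most of the iron storage list was lower in 2cpab seedlings. Of 9 tested members 7 were held lower, against 3.3% of all tested genes, and the median difference was -1.62, against 0.05 over all tested genes. Ferritins keep iron in a mineral core inside plastids. FER1 had 97.4, 137 and 91.9 scaled FPKM in green and 83.9, 84.9 and 79.7 in albino 2cpab libraries, against 395, 320 and 283 in wild-type libraries (-1.80 ± 0.19, adjusted p = 0.00336). FER4 had 13.79, 15.43 and 16.92 in green and 18.4, 19.0 and 16.4 in albino 2cpab libraries, against 52.9, 36.7 and 39.1 in wild-type libraries (-1.30 ± 0.14, adjusted p = 0.00336). FER1 and FER4 were held throughout, and neither differed between albino and green beyond the spread (adjusted p = 0.112 and 0.263). FER1 was among the falls picked for a small albino minus green difference.

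FER3 fell as well, further in albino mutants, with 43.20, 54.97 and 52.52 in green and 25.9, 27.5 and 21.6 scaled FPKM in albino 2cpab libraries, against 134, 92.7 and 125 in wild-type libraries (-1.68 ± 0.31, adjusted p = 0.0192). NEET, an iron-sulfur protein gene, had 21.2, 39.6 and 28.6 in green and 7.86, 5.77 and 5.71 in albino 2cpab libraries, against 140, 90.8 and 73.9 in wild-type libraries (-2.74 ± 0.62, adjusted p = 0.0387). VTL1, VTL2 and VTL5 belong to the vacuolar iron transporter family, and VTL5 had 22.32, 20.71 and 21.65 in green and 10.8, 14.6 and 12.1 in albino 2cpab libraries, against 43.1, 65.5 and 50.6 in wild-type libraries (-1.62 ± 0.25, adjusted p = 0.0111). All 3 VTL genes were below the wild type in every mutant library. FER2, a ferritin of seeds, and YSL1, a metal-nicotianamine transporter, were not called (0.17 and -0.47, adjusted p = 0.633 and 0.272). FER4 shares 118 bases with AT2G40290 on the same strand and FER1 lies opposite AT5G01595. Leaving out a mutant library gave 6 or 7 held falls in this list, whereas 3, 4 and 2 were counted without wild-type replicates 1, 2 and 3.

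Genes of iron uptake were mostly not called over the 6 mutant libraries together. Of 24 tested members of the iron deficiency response none was held higher and 1 was held lower, against 1.84% and 3.3% of all tested genes. The count held lower is near that share. The median difference of the list was 0.19. This median pools unlike values, 1.00 in green and -0.89 in albino mutants. In green mutants 12 members were called higher than the wild type, against 3.71% of all tested genes, and in albino mutants 17 were called lower, against 20.1%. The summed level of the list was 1321 to 1410.5 scaled FPKM in green, 185 to 216 in albino and 340.3 to 537 in wild-type libraries. The held member was FRD3, an efflux carrier of citrate that keeps iron mobile, with 5.61, 4.77 and 5.33 in green and 4.96, 4.71 and 4.60 scaled FPKM in albino 2cpab libraries, against 9.17, 9.95 and 9.55 in wild-type libraries (-0.82 ± 0.08, adjusted p = 0.00251). Of 17 tested copper and superoxide dismutase genes, 3 were held lower, against 3.3% of all tested genes, with 1 without wild-type replicate 1 or 3 and 2 without wild-type replicate 2 or any one albino library. FSD1, the iron superoxide dismutase, had 212, 249 and 259 in green and 102, 90.6 and 89.9 in albino 2cpab libraries, against 720, 437 and 534 in wild-type libraries (-1.87 ± 0.41, adjusted p = 0.0359). ZIP2, a metal transporter, and FRO4, a metal reductase, fell by 0.73 and 0.84 on the log2 scale (adjusted p = 0.00607 and 0.016), and FRO4 was weak in every group.

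**Figure D3:**
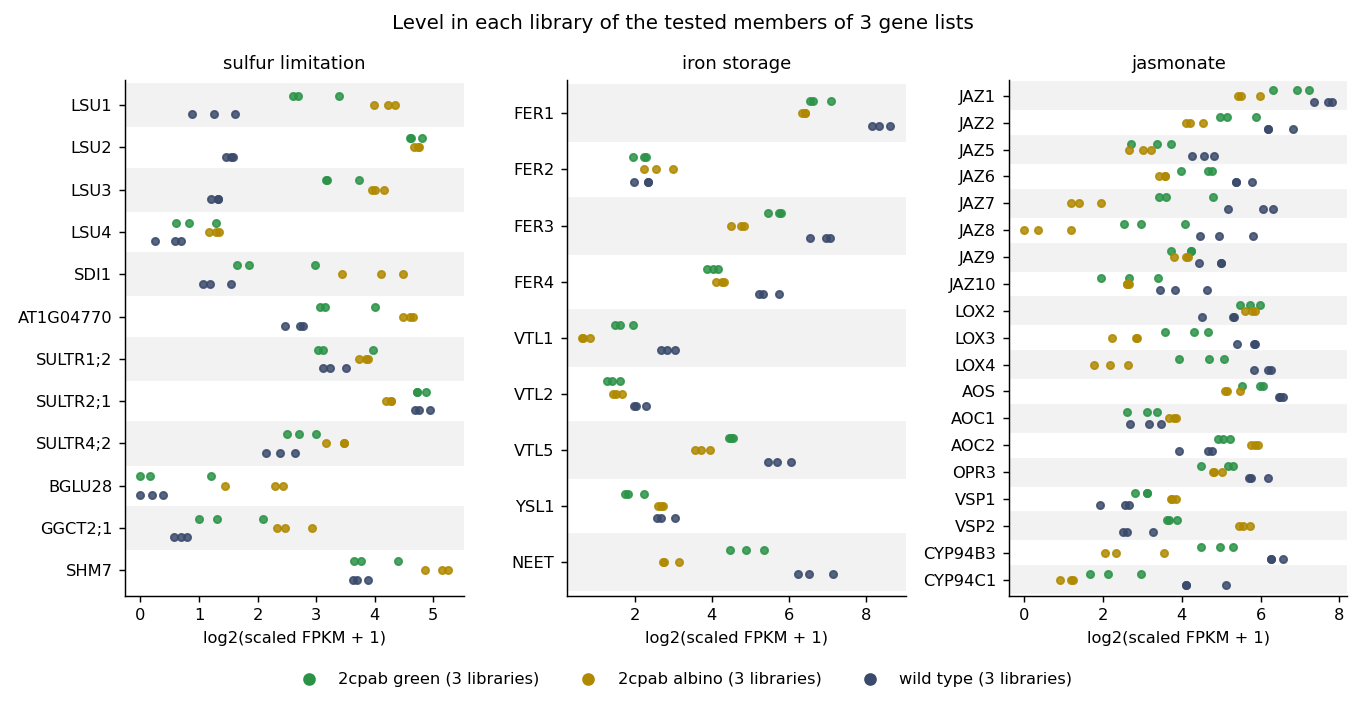
Level in each library, as log2(scaled FPKM + 1), of the tested members of the sulfur limitation, iron storage and jasmonate lists. Points of LSU1, LSU2 and LSU3 lie to the right of the wild type in all 6 mutant libraries, and those of 7 iron storage genes and 9 called jasmonate genes lie to the left.

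Heme and chlorophyll share their first steps, and the tetrapyrrole list had 3 held falls and 1 held rise among 32 tested members, against 3.3% and 1.84% of all tested genes. Albino mutants had 27 members called lower than the wild type, against 20.1% of all tested genes, and green mutants had 4, against 5.16%. The falls were HEMA1 and HEMA2, which encode glutamyl-tRNA reductase at the start of the pathway, and AT5G26030, ferrochelatase 1, which puts iron into heme. HEMA2 had 16.6, 20.1 and 21.1 scaled FPKM in green and 16.18, 15.83 and 19.95 in albino 2cpab libraries, against 46.1, 42.9 and 43.8 in wild-type libraries (-1.24 ± 0.11, adjusted p = 0.00251). It was held throughout, and green and albino did not differ beyond the spread (adjusted p = 0.355). HEMA1 had 59.6, 64.3 and 85.2 in green and 47.3, 41.6 and 46.9 in albino 2cpab libraries, against 244, 131 and 147 in wild-type libraries (-1.57 ± 0.26, adjusted p = 0.0129). AT5G26030 fell by 1.46 on the log2 scale (SE 0.28, adjusted p = 0.0209), and a microRNA gene lies inside it on the same strand. The rise was AT4G11910, at 0.56 ± 0.11 (adjusted p = 0.0252). The list had 3 held falls and no held rise without green replicate 1, and 1 held fall without wild-type replicate 1 or 3.

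Jasmonate genes fell in part. Of 19 tested members 9 were held lower, against 3.3% of all tested genes, and none higher, and the median difference was -1.39. The falls were JAZ2, JAZ5, JAZ6, JAZ9 and JAZ10 among the JAZ repressors, LOX3, AOS and OPR3 among the enzymes of synthesis, and CYP94C1, which oxidises the active hormone. CYP94C1 had 2.17, 3.34 and 6.78 scaled FPKM in green and 1.36, 0.876 and 1.29 in albino 2cpab libraries, against 16.3, 16.2 and 33.8 in wild-type libraries (-2.77 ± 0.44, adjusted p = 0.0116). LOX3 had 10.8, 18.8 and 24.5 in green and 6.18, 3.71 and 6.20 in albino 2cpab libraries, against 56.9, 41.5 and 55.9 in wild-type libraries (-2.29 ± 0.50, adjusted p = 0.0343). For both, the albino libraries were the lowest.

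JAZ5, JAZ9, JAZ10 and OPR3 showed no albino minus green difference past the test (adjusted p of 0.357 to 0.955). JAZ7 and JAZ8 lay below the wild type in all 6 mutant libraries without being called (-3.13 and -3.21, adjusted p = 0.052 and 0.067). In the list as a whole, 14 of 19 tested members lay below the wild type in all 6 mutant libraries, against 7.55% of all tested genes. Another 4 lay above it in all 6 without being called, against 7.52%, and VSP2 was among them. VSP2, a storage protein gene that responds to jasmonate, had 11.8, 11.3 and 13.6 in green and 52.3, 42.8 and 45.6 scaled FPKM in albino 2cpab libraries, against 4.72, 8.56 and 5.06 in wild-type libraries, and was not called (1.86, adjusted p = 0.087). The count in this list was unsteady, with 3 held falls without green replicate 1, 14 without green replicate 3, 2 or 3 without an albino library, and 1, 3 and 0 without wild-type replicates 1, 2 and 3. AOC3, an allene oxide cyclase outside the list that was named after its values were seen, was held throughout at -1.14 ± 0.15 (adjusted p = 0.00609).

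Of 16 tested members of the rapid stress and touch list 1, CML38, was held lower, though 13 lay below the wild type in all 6 mutant libraries, against 7.55% of all tested genes. The held count was 0 without any one wild-type library and 5 without green replicate 3. CML38, a calmodulin-like gene, had 35.6, 46.0 and 64.5 scaled FPKM in green and 10.9, 7.67 and 19.6 in albino 2cpab libraries, against 201, 159 and 196 in wild-type libraries (-2.89 ± 0.60, adjusted p = 0.0291). PHI-1, a phosphate-responsive gene outside this list, had 64.9, 72.9 and 84.4 in green and 28.1, 16.3 and 18.7 in albino 2cpab libraries, against 275, 220 and 210 in wild-type libraries (-2.55 ± 0.54, adjusted p = 0.0306). In both genes the green libraries lay between the albino and the wild-type libraries.

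Further falls with wide steps followed the same order. AT5G38700, annotated as a cotton fiber protein, had the widest step downward, with 8.37, 6.83 and 10.6 in green and 2.299, 2.054 and 3.541 scaled FPKM in albino 2cpab libraries, against 36.0, 37.3 and 41.3 in wild-type libraries (-2.75 ± 0.43, adjusted p = 0.0111). PP2-A5, a phloem protein gene, had 7.96, 13.5 and 11.6 in green and 1.80, 1.51 and 1.86 in albino 2cpab libraries, against 46.9, 38.01 and 53.8 in wild-type libraries (-3.05 ± 0.62, adjusted p = 0.0267). COBL8, a COBRA-like protein gene, and AT3G07195, of the RIN4 family, fell by 2.50 and 2.38 on the log2 scale (adjusted p = 0.0111 and 0.0154). AT5G28610 and PGSIP7 fell by 2.35 and 2.06 (adjusted p = 0.0098 each). Green libraries of these genes lay between the albino and the wild-type libraries. AT3G05945 is annotated as other RNA, and it had 1.49, 8.94 and 7.57 in green and 0.181, 0.684 and 0.716 in albino 2cpab libraries, against 36.1, 30.4 and 31.1 in wild-type libraries (-3.48 ± 0.68, adjusted p = 0.0233). The putative DREB-type regulator ddf2 was listed at 0, 0.0314 and 0.546 in albino libraries and had 1.86, 2.94 and 2.94 in green libraries, against 8.594, 9.539 and 10.55 in wild-type libraries (adjusted p = 0.0268). Each of these genes differed between albino and green (adjusted p of 2.71e-05 to 0.0128), with the albino libraries lower.

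Falls picked for the smallest albino minus green difference included a transporter, a kinase and an ankyrin gene. OCT6, an organic cation transporter, had 5.30, 4.43 and 7.77 scaled FPKM in green and 2.82, 3.63 and 6.20 in albino 2cpab libraries, against 18.0, 18.4 and 22.6 in wild-type libraries (-1.83 ± 0.24, adjusted p = 0.00609). MAPKKK14, a kinase at the top of a mitogen-activated cascade, had 16.2, 18.1 and 20.9 in green and 12.5, 11.3 and 16.1 in albino 2cpab libraries, against 70.4, 46.5 and 45.1 in wild-type libraries (-1.70 ± 0.21, adjusted p = 0.00517). AT5G54710, an ankyrin repeat gene, fell by 1.71 on the log2 scale and AT1G59740, of the major facilitator superfamily, by 1.53 (adjusted p = 0.003 and 0.00251). All 4 were held throughout. OCT6, MAPKKK14 and AT5G54710 did not pass the test of albino minus green (adjusted p of 0.0779 to 0.206), and AT1G59740 did, at -0.43 (adjusted p = 0.0049). The way these genes were picked largely fixed that outcome. All 4 were still further from the wild type in albino mutants, with albino minus green of -0.38 to -0.45.

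Part of the seed storage and oil body list was higher. Of 10 tested members 4 were held higher and none lower, against 1.84% of all tested genes held higher, and the median difference was 1.56. CRA1, a cruciferin of seed protein bodies, had 28.83, 24.42 and 23.59 scaled FPKM in green and 43.7, 34.3 and 17.9 in albino 2cpab libraries, against 1.94, 7.99 and 4.46 in wild-type libraries (2.45 ± 0.35, adjusted p = 0.00885). OLEO1, an oleosin of oil bodies, had 5.37, 3.78 and 6.29 in green and 9.30, 7.23 and 4.62 in albino 2cpab libraries, against 0.507, 1.39 and 1.02 in wild-type libraries (1.83 ± 0.24, adjusted p = 0.00619), and was held throughout. Neither gene differed between albino and green past the test (adjusted p = 0.688 and 0.282). OLEO2 rose by 1.74 ± 0.32 (adjusted p = 0.018). CRU3 had 9.13, 6.46 and 17.1 in green and 31.7, 4.77 and 5.68 in albino 2cpab libraries, and in the wild type it was listed at 0 in replicate 1, with 2.25 and 0.343 in the others (adjusted p = 0.0316).

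The summed level of the 10 seed genes was 60.4 to 185 in 2cpab libraries and 10.8 to 33.5 in wild-type libraries. In whole seedlings, a difference in the number of cells of a type and one in RNA per cell cannot be told apart, and the part of leftover seed tissue in other results was not tested. None of 12 genes of seed oil breakdown was held, but 11 were called higher than the wild type in albino mutants, against 23.4% of all tested genes, and 11 stood higher in albino than in green, against 18.5%. Their median difference was 1.2 in albino and 0.04 in green mutants. Of 16 tested abscisic acid and cold genes 4 were held higher, namely COR15A, COR15B, EM6 and the dehydrin AT5G66400, against 1.84% of all tested genes, with a median difference of 1.00 over the list. COR15A, a chloroplast protein that protects membranes in the cold, had 2.93, 1.63 and 1.69 in green and 6.47, 3.97 and 5.22 scaled FPKM in albino 2cpab libraries, against 0.226, 0.384 and 0.419 in wild-type libraries (1.69 ± 0.33, adjusted p = 0.0242). AT5G66400 had 14.0, 29.6 and 6.81 in green and 41.1, 32.7 and 28.0 in albino 2cpab libraries, against 3.59, 4.11 and 5.60 in wild-type libraries (2.1 ± 0.49, adjusted p = 0.0416). COR15B had 1.36, 1.07 and 0.847 in green and 1.17, 0.685 and 0.460 in albino 2cpab libraries, and its wild-type libraries 1 and 3 were at 0 in the table (adjusted p = 0.0393). This list held 0 rises without wild-type replicate 1 or 3 or albino replicate 2 and 6 without green replicate 3, and the seed list held 2 and 1 without wild-type replicates 1 and 3.

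Among starch genes 4 of 19 tested were held higher, against 1.84% of all tested genes, and none lower. The median difference was 0.25 in green and -0.32 in albino mutants, where 10 members were called lower than the wild type, against 20.1% of all tested genes. Of the 19, 12 stood lower in albino than in green, against 17.7%. APL3, a large subunit of ADP-glucose pyrophosphorylase, had 7.19, 5.11 and 4.98 scaled FPKM in green and 8.58, 7.93 and 6.33 in albino 2cpab libraries, against 2.60, 2.31 and 2.26 in wild-type libraries (1.16 ± 0.16, adjusted p = 0.0073). SEX4, a phosphoglucan phosphatase, ISA3, a debranching enzyme, and AT5G26570 rose by 0.75 ± 0.10, 0.76 ± 0.12 and 0.69 ± 0.14 (adjusted p = 0.00712, 0.00991 and 0.0286). Without wild-type replicate 3 none of the starch genes was held, and without wild-type replicate 1 there were 2. APL3 acts in building starch, whereas SEX4 and ISA3 act in taking it apart. None of these 4 differed between albino and green past the test (adjusted p of 0.0813 to 0.774).

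Lists tied to the plastid redox system had few held members. Over all tested genes 1.84% were held higher and 3.3% were held lower. Of 22 tested plastid thiol redox genes 1 was held higher, ACHT4, an atypical thioredoxin, with 31.0, 36.8 and 39.2 scaled FPKM in green and 27.8, 28.8 and 34.2 in albino 2cpab libraries, against 23.53, 17.63 and 17.55 in wild-type libraries (0.73 ± 0.14, adjusted p = 0.0219). In albino mutants 18 of the 22 were called lower than the wild type, against 20.1% of all tested genes. In green mutants none was, against 5.16%. Of 16 genes of hydrogen peroxide removal and glutathione, APR1 was the one held. ELIP1, an early light-induced protein of the thylakoid, was the 1 held gene among 22 tested light-harvesting genes, with 30.01, 57.36 and 56.29 in green and 30.4, 19.5 and 27.3 in albino 2cpab libraries, against 7.71, 9.80 and 12.4 in wild-type libraries (1.70 ± 0.33, adjusted p = 0.0233). Its rise ran against the list, whose median difference was -1.75 and whose summed level was 31709.7 to 44245 in green, 3631 to 4261 in albino and 36281 to 55027 in wild-type libraries. Of 21 greening and retrograde regulators, PIF1 and AT5G15700 were held higher and EX1 was held lower, by 0.57 on the log2 scale (adjusted p = 0.0473). PIF1 and EX1 each lost the call in 11 of 23 alternatives and AT5G15700 in 11 of 22, and the step of PIF1 was 0.02.

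No gene was held among 30 nuclear photosystem genes, 19 of the Calvin-Benson cycle, 22 nuclear genes of plastid ribosomal proteins, 16 of the plastid genome and 11 plastid chaperones. Of the 30 photosystem genes, 5 lay below the wild type in all 6 mutant libraries without being called, against 7.55% of all tested genes. PSBR, a subunit of photosystem II, had 2794, 4339 and 3420.2 scaled FPKM in green and 722, 603 and 804 in albino 2cpab libraries, against 4105, 3775 and 3006 in wild-type libraries. Its pooled difference was -1.20 ± 0.70 (adjusted p = 0.314), made up of -0.06 in green and -2.35 in albino mutants. None of the 25 heat-shock genes outside the plastid was held either. Of these, 4 lay above the wild type in all 6 mutant libraries without being called, against 7.52% of all tested genes. In green mutants 22 of the 25 were called higher than the wild type, against 3.71% of all tested genes. In albino mutants 1 was called higher and 3 lower, against 23.4% and 20.1%. HSP101, the disaggregase of the cytosol, had 171, 383 and 445 in green and 6.23, 5.53 and 23.9 in albino 2cpab libraries, against 19.6, 28.6 and 34.5 in wild-type libraries, so the mutant libraries stood on both sides of the wild type. Its albino minus green difference was -4.87, and that of the heat-shock regulator MBF1C was -2.63 (adjusted p = 0.00167).

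**Figure D4:**
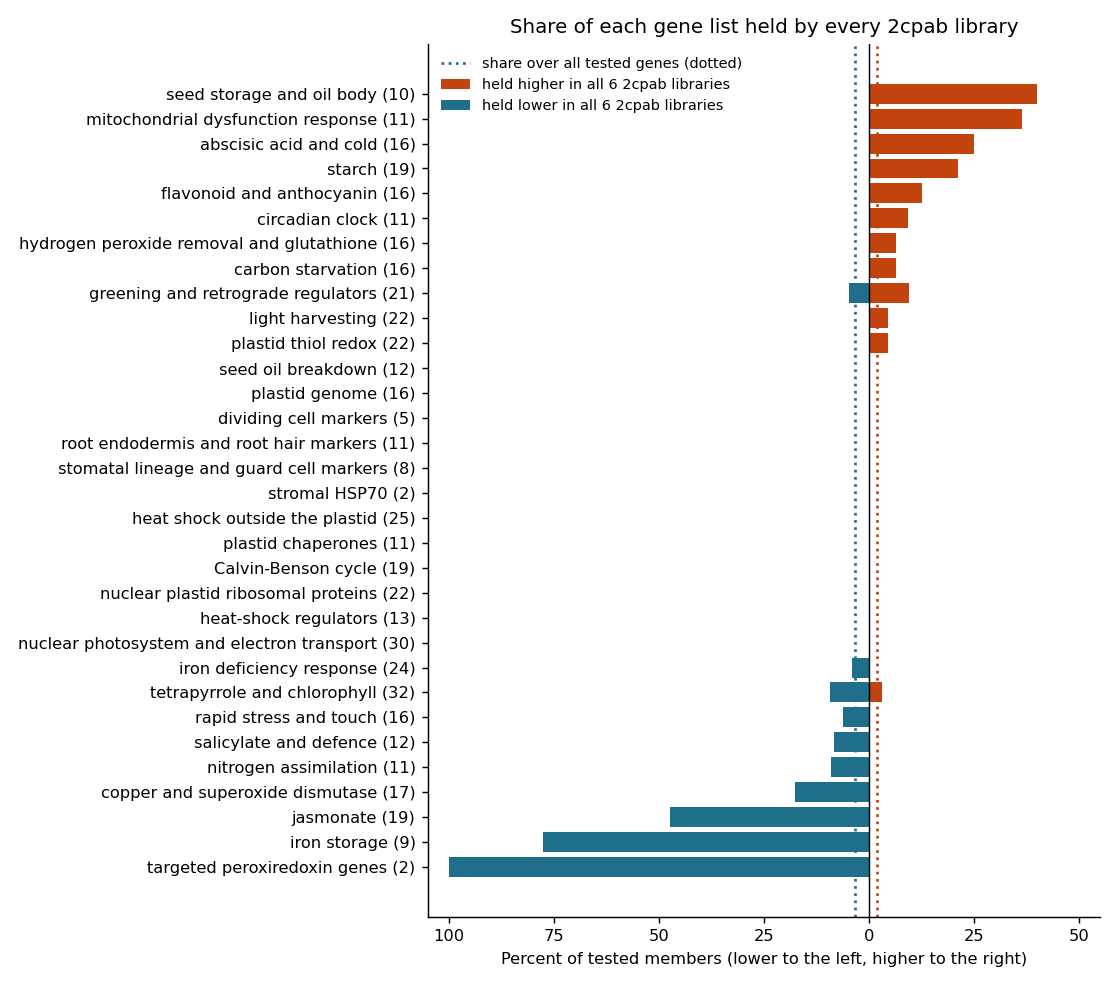
Percent of the tested members of each of 32 gene lists (number tested in brackets) that were held lower (bars to the left) or held higher (bars to the right) in 2cpab seedlings. Iron storage and jasmonate reach furthest to the left beside the targeted pair, and dotted lines mark the shares over all tested genes, 3.3% and 1.84%.

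The remaining lists each had 0 to 2 held members, beside 1.84% of all tested genes held higher and 3.3% held lower. GSTF12, which helps move anthocyanin to the vacuole, and MYB111, a regulator of flavonols, were held higher among 16 flavonoid genes, by 1.82 ± 0.43 and 0.62 ± 0.15 (adjusted p = 0.0438 and 0.0482). Of these 16 genes, 8 lay above the wild type in all 6 mutant libraries, against 7.52% of all tested genes, and none lay below. The median difference of the flavonoid list was 0.82. Single held members were PRR5 of 11 tested clock genes (higher, adjusted p = 0.0477) and PAD4 of 12 salicylate and defence genes (lower, adjusted p = 0.0455). GLT1, the NADH-dependent glutamate synthase, was the 1 held member of 11 nitrogen assimilation genes (lower, adjusted p = 0.031). These calls were among the least stable, and of the 23 alternatives PRR5 lost its call in 15, PAD4 and GSTF12 in 12 each and GLT1 in 11, while MYB111 lost it in 14 of 22. Cell type markers had none, with 11 root, 8 stomatal and 5 dividing-cell genes tested. The summed level of the dividing-cell markers was 58.4 to 77.8 in 2cpab libraries and 63.6 to 69.6 in wild-type libraries. That of the root markers was 73.5 to 145 in 2cpab libraries and 77.2 to 147 in wild-type libraries, and that of the stomatal markers was 18.7 to 26.4 in 2cpab libraries and 24.5 to 28.6 in wild-type libraries. Over the 34 lists, 14 had a held rise, 10 had a held fall and 12 had neither, and 2 of them, tetrapyrroles and greening regulators, had both.

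Green and albino mutants were then compared within the held genes. The pooled fit keeps the distance between green and albino libraries in its error and so favours genes that are alike in both, which makes these counts a description. Albino and green differed, in either direction, for 89 of 364 held rises (24.5%) and for 234 of 652 held falls (35.9%). Over all tested genes 18.5% were called higher and 17.7% lower in albino than in green libraries. The held shares count both directions, so the matching share of all tested genes is the sum of 18.5% and 17.7%. Neither held share lay above that sum, and the share of held rises lay well below it. Of these 89 rises 74 were further from the wild type in albino and 15 in green libraries, and of the 234 falls 225 were further in albino and 9 in green libraries. The median difference of held rises from the wild type was 0.83 in albino and 0.68 in green libraries, and that of held falls was -0.96 in albino and -0.77 in green libraries; both use the same wild-type libraries. Tested by itself, green against wild type was called for 296 of the held rises and 604 of the held falls, beside 8.87% of all tested genes in either direction. Albino against wild type was called for all 364 and 652 of them, beside 43.5% of all tested genes. Held genes were chosen for lying beyond the same wild-type libraries, so these counts were largely fixed by that choice and lend it no support.

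**Figure D5:**
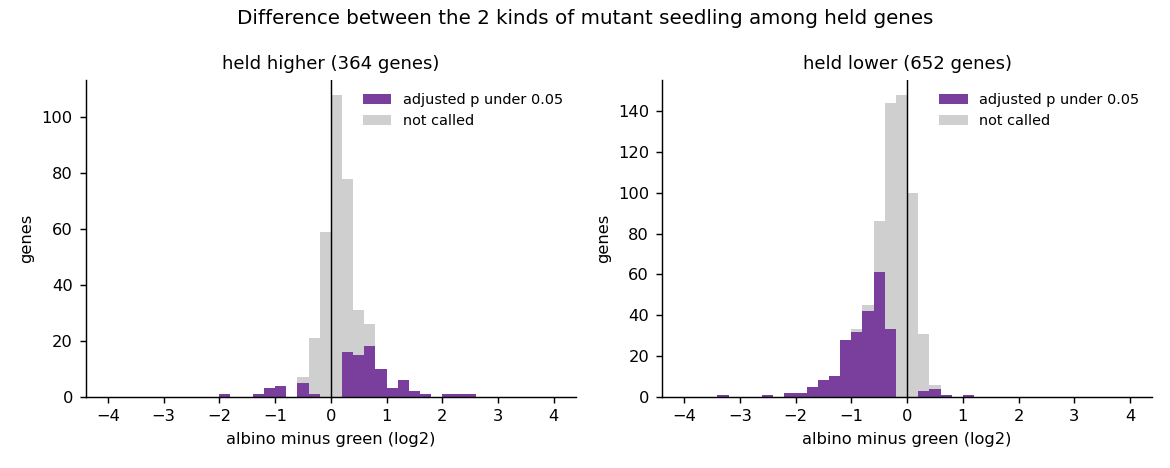
Number of held rises (left) and held falls (right) by their albino minus green difference (log2, bins of 0.2 wide), with genes called between albino and green in purple. Called rises lie mostly right of 0 and called falls mostly left of 0, that is further from the wild type in albino seedlings.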

How the data were processed

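Per the labels' protocols, a Sure Prep kit gave the RNA, and an Illumina kit that keeps the strand turned its poly(A) fraction into libraries. The submitters' processing notes name TAIR10 as the genome and, with no version, FastQC, HISAT2 and StringTie. Each deposited log2 value is that of a library's factor times FPKM, plus 1, as read from the table: the 75th percentile is 3.70 in all libraries, and the factors are 0.953 to 1.12 in green, 0.781 to 0.792 in albino and 0.993 to 1.09 in wild-type libraries. No counts were used, so the depth behind a value is unknown, as is the error from counting. The table has 32833 genes, of which 6331 are 0 throughout.

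Genes with at least 1 scaled FPKM in at least 3 of 9 libraries were tested, 19731 in all, with limma 3.58.1 in R 4.3.3 (moderated variances with a trend) on the deposited log2 values. Tables and figures were made in Python 3.11.15 with numpy 2.4.6, pandas 2.3.3 and matplotlib 3.10.9. A second fit with 1 mean per group gave albino minus green. Names, positions and sequences came from RefSeq for TAIR10.1, which matched 32548 genes, and 285 organelle codes stayed unnamed.

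The members and lists were chosen with earlier results of these data known. The rule for named genes took 2CPA, 2CPB, both stromal HSP70 genes and the 12 rises and 12 falls with the largest step among held genes with a group mean of at least 5. It added the 5 rises and 5 falls most even between pigments, and from each list up to 3 held members or else its most abundant one; genes named outside it were chosen after their values were seen. The 32 lists hold 516 genes, and 2 lists (sulfur limitation, galactinol and raffinose synthesis) were added after seeing values. On simulated data for 2cpab minus wild type over 19731 genes, the fit called 96%, 78%, 78% and 88% of 50 genes each given folds of 0.25, 0.5, 2 and 4, and made 12 false calls. The simulation gave a gene the same spread in all libraries and no separate green and albino levels. Weak genes were not among those changed, so these figures do not measure the fit on the real libraries.

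Of the named genes 27 overlap another annotated gene, 3 of them on the same strand. Alternatives changed the pseudocount (0.1 or 5), filter, scaling, fit, threshold and held rule, and left out each library in turn.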

Additional observations from a re-analysis of the deposited data

Results flagged for a closer look

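With the 6 mutant libraries taken as one group, 2 named genes had a library that stood apart by Dixon's test, which marks about 1 group in 20 by chance. FER1 had 137 scaled FPKM in green replicate 2, above the other 5 mutant libraries. PAD4 had 8.80 in albino replicate 3, above the other 5 and close to the lowest wild-type library.

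Albino and green libraries differed in 37 held and named genes, tested as a contrast with adjusted p under 0.05. Rises that stood higher in albino than in green libraries, as log2 albino minus green, were PDF1.4 (2.46), KMD4 (1.47), AT4G33467 (1.46), LSU1 (1.29), GSTF12 (1.25), AT2G47780 (1.21), AT5G66400 (1.18), COR15A (1.02), GOLS2 (0.80), AT2G21640 (0.74), LSU3 (0.69), APR1 (0.62) and AT5G66052 (0.31). Rises that stood lower in albino libraries were GOLS1 (-1.81), AT5G07330 (-0.92), ELIP1 (-0.84) and AT3G11640 (-0.52). Among the falls the widest differences belonged to the targeted genes, 2CPB (-3.22) and 2CPA (-2.47). PP2-A5 (-2.12), AT3G05945 (-1.99), CML38 (-1.91), PHI-1 (-1.80), ddf2 (-1.60), LOX3 (-1.54), AT5G38700 (-1.40), AT3G07195 (-1.40), FSD1 (-1.34), COBL8 (-1.27) and CYP94C1 (-1.13) were also lower in albino libraries. Smaller differences in that direction were those of PGSIP7 (-0.99), AT5G28610 (-0.97), JAZ6 (-0.94), AT5G26030 (-0.80), VTL5 (-0.75), AT1G59740 (-0.43) and EX1 (-0.38). None of the named falls stood higher in albino than in green libraries past the test.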

How the results depend on the processing

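The count of held genes, 364 rises and 652 falls, moved with scaling and fit. A common sum over nuclear genes gave 232 and 304 held (234 and 304 called), and the undone scaling gave 254 and 339 held (339 called lower). With 3 group means, where the green to albino distance leaves the error, 1283 and 1352 were held and 2962 and 3000 called. Adjusted p under 0.01 left 52 and 118, and a 2-fold minimum left 122 and 261 held (125 and 261 called). Held genes differing between albino and green numbered 323, against 179 with no filter, 1166 with 3 group means, 535 with both pigment groups called, and 27 at adjusted p under 0.01. Without green replicates 2 and 3, chosen after seeing the data, 2374 and 2355 genes were called, 2259 and 2235 held, and 1246 differed between albino and green. Leaving out each library in turn gave 48 to 600 called rises, 48 to 599 held rises, 88 to 881 called falls, 88 to 879 held falls, and 17 to 442 held genes differing between albino and green. The cause of these shifts was not tested. Pseudocount, stricter filter, quantile and median-of-ratios scaling, the trend and robust moderation kept these counts over all genes within 1.5 times. Counts of held members in single lists did move under them; with a pseudocount of 5 the abscisic acid and cold list had 1 held rise in place of 4, flavonoids 0 in place of 2 and galactinol 1 in place of 2.

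Same-numbered libraries did not deviate together in every pair (correlations of -0.15 to 0.28), which does not settle whether the numbers pair the samples. The highest correlations were those of wild type 2 with green 2 (0.28) and wild type 3 with green 3 (0.27). The lowest were those of wild type 2 with green 3 (-0.36) and wild type 3 with green 2 (-0.27). With a replicate block 143 rises and 335 falls were held, 148 and 340 called, and 109 held genes differed between albino and green.

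Of genes that were not called, cpHSC70-1 turned its sign with quantile scaling (0.14), a common nuclear sum (0.23), the undone scaling (0.21) and single libraries left out (-0.14 to 0.086). CASP1 did so with a nuclear sum (0.052), the undone scaling (0.024) and single libraries left out (-0.40 to 0.012). KNOLLE did so with a nuclear sum (0.21), the undone scaling (0.18) and single libraries left out (-0.088 to 0.043). HSC70-1 ranged from -0.0012 to 0.22 with single libraries left out and was -0.069 without green replicates 2 and 3. Weak genes have unknown counting error, as depth is not known.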

Other observations

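Genes grouped by words in their RefSeq product names, a grouping chosen after values had been seen, gave further counts of held genes. Of 1039 tested genes with kinase in the name, 71 (6.83%) were held lower and 9 (0.87%) higher, beside 3.3% lower and 1.84% higher over all tested genes. Of 101 genes named for calcium or calmodulin, 15 (14.9%) were held lower and 1 higher. Of 134 genes with a late embryogenesis or seed term in the product name, 15 (11.2%) were held higher and 6 lower. These terms also match a lipid-transfer superfamily whose name includes seed storage 2S albumin, such as AT4G22610, which was held lower. The group is therefore not one of seed genes alone. Ribosomal proteins, 319 genes, had 3 held rises and no held fall. Across the 5 nuclear chromosomes the held share was 4.90% to 5.51%.

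Some genes held throughout stand in no list and were named after their values were seen. GA2OX6, which inactivates gibberellin, had 12.5, 13.7 and 18.5 scaled FPKM in green and 8.10, 8.90 and 12.5 in albino 2cpab libraries, against 37.5, 51.9 and 47.4 in wild-type libraries (-1.84 ± 0.23, adjusted p = 0.00561). GTR1, a glucosinolate transporter, had 21.3, 20.5 and 26.6 in green and 25.4, 22.0 and 23.0 in albino 2cpab libraries, against 70.0, 52.2 and 74.1 in wild-type libraries (-1.45 ± 0.13, adjusted p = 0.00251). WRKY18, a defence regulator, fell by 1.63 on the log2 scale (SE 0.21, adjusted p = 0.00569), and SLAH3, an anion channel, by 1.04 (SE 0.12, adjusted p = 0.00511). PPCK1, the kinase of phosphoenolpyruvate carboxylase, rose by 1.24 ± 0.18 (adjusted p = 0.0098). MYB4, a repressor of phenylpropanoid genes, rose by 0.90 ± 0.10 (adjusted p = 0.00336).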
